A study of Mus musculus with 6 samples.

Results

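The genes described here are those of the neurotrophins and their receptors, chosen by name: the receptors Ntrk2, Ntrk3, Ngfr and Sort1, the ligands Bdnf and Ntf3, and the receptor scaffold Kidins220. All 7 were in the expression table of 17971 genes and all 7 had enough reads to be tested. The data are RNA-seq of dorsal root ganglia from male mouse embryos at E13.5, with 3 libraries in each of the cKO and Ctrl groups. The cKO embryos were Wnt1-cre+/-;Ybx1fl/fl, so that Cre recombinase acts in the neural crest lineage, which gives rise to the sensory neurons and glia of the ganglion but not to its blood, vessels or connective tissue of other origin. The Ctrl embryos were Ybx1fl/fl littermates without Cre, so both groups carry floxed Ybx1 on both chromosomes, and effects of Cre and of losing Ybx1 cannot be told apart. Libraries with the same replicate number share the start of their sample code and are called a pair here.

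Neurotrophins are secreted growth factors that keep developing sensory neurons alive and guide their axons to their targets. Each binds a Trk receptor, a membrane tyrosine kinase, and all of them also bind p75, a receptor without kinase activity that can favour survival or death depending on its partners. In dorsal root ganglia the Trk receptors divide the neurons by sense: TrkB marks many touch neurons, and TrkC marks the muscle-length sensors called proprioceptors and some touch neurons. The protein encoded by Ybx1 binds mRNA through a cold-shock domain, and the study compared the groups to find transcripts that depend on it.

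Each library held between 16464264 and 17446385 estimated counts. Ybx1 itself stood at 137, 121.8 and 108.3 CPM (counts scaled to normalised library size) in cKO, against 927.4, 808.5 and 817.1 CPM in Ctrl, so every library went with its label. No single library was left out of the main comparison, but cKO replicate 1 stood apart. Its summed TPM (transcript abundance scaled for gene length and depth) of 8 erythroid genes was 44363.3, against 12587 and 20681.5 in the other cKO libraries and 14945.6 to 21221.5 in Ctrl. The same library had the lowest summed TPM of 12 pan-neuronal genes, 13100.4, against 14866.1 and 14790.4 in cKO replicates 2 and 3 and 13836.9 to 14386.2 in Ctrl.

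The levels of the genes covered a wide range. Per length, Ngfr was the highest, with 246.4 to 330.6 TPM over the 6 libraries, and Kidins220 came next with 118.6 to 173.4 TPM. Sort1 held 34.3 to 49.7 TPM, Ntrk2 19 to 26.9 TPM and Ntrk3 14.7 to 20.2 TPM. The ligands were low, Bdnf at 1.89 to 3.15 TPM and Ntf3 at 0.94 to 1.95 TPM. The ranges of Ntrk2 and Ntrk3 overlapped, as did those of Bdnf and Ntf3, while all other neighbours in this order were separate. Within a library Ntrk2 was nevertheless above Ntrk3 every time: the ratio of their TPM was 1.29, 1.29 and 1.2 in cKO, against 1.45, 1.44 and 1.28 in Ctrl, so the groups overlapped by 1 library. The ratio of Ngfr to Sort1, the partners in proneurotrophin binding, was 7.18, 7.22 and 6.88 in cKO, against 7.38, 6.66 and 7.13 in Ctrl.

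Of the 7 genes, 6 had a lower mean in cKO, and Ntf3 was the exception. None passed edgeR's quasi-likelihood test at an adjusted p under 0.05, a threshold that 0.481% of all 14338 genes tested passed (0.37% as lower and 0.112% as higher in cKO). Ntrk2 and Bdnf, 2 of 7 genes, had an unadjusted p under 0.05, as did 10.7% of all genes, and neither DESeq2 nor limma-voom called any of them. The median log2 fold change (cKO over Ctrl) of the 7 was -0.14, beside 0.004 over all genes tested. In CPM the groups did not overlap for 4 of them, Ntrk2, Ngfr, Sort1 and Bdnf, each lower in cKO, as was the case for 8.77% of all genes, and none was higher without overlap, beside 7.83% of all genes. The 6 genes with a lower mean were also lower in cKO than in the Ctrl library of the same number in all 3 pairs, which held for 20.3% of all genes.

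**Figure D1:**
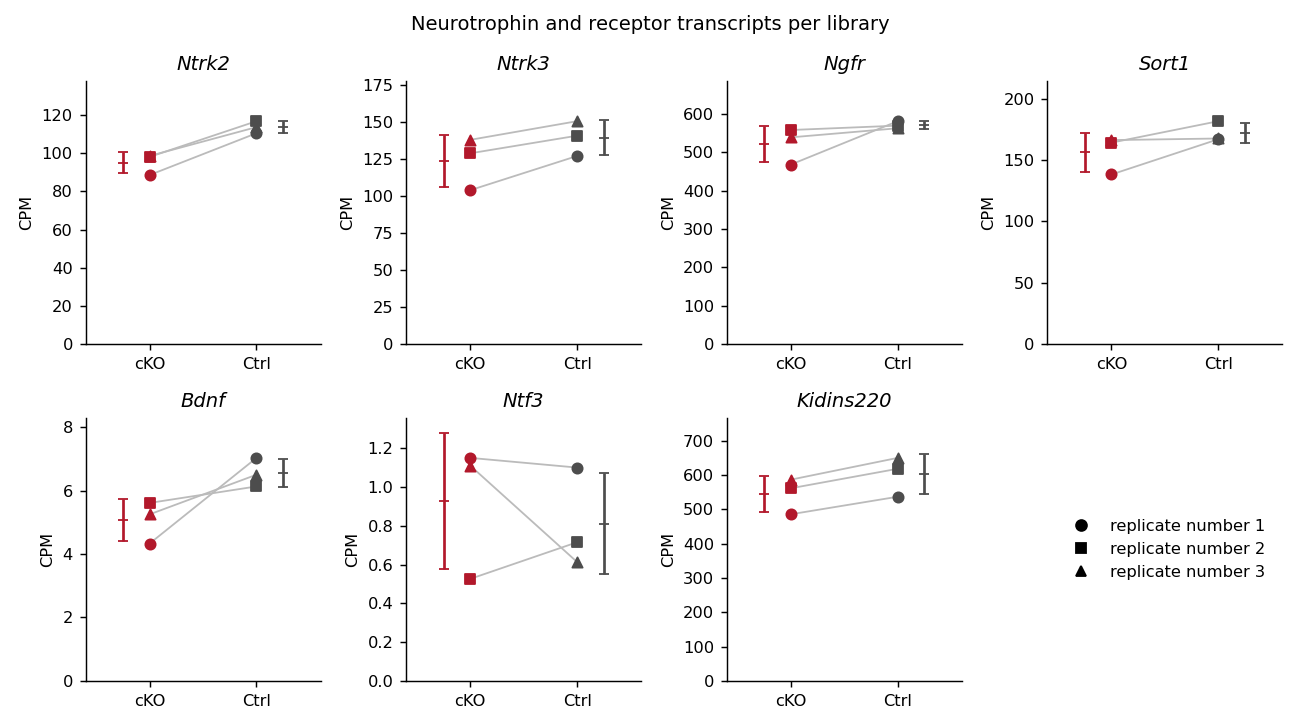
CPM of each gene in each library, cKO on the left and Ctrl on the right of each panel. Symbols give the replicate number, grey lines join libraries of the same number, and bars give the mean and SD of the 3 libraries. For Ntrk2 every line slopes upward to Ctrl, by a log2 CPM ratio of -0.32, -0.25 and -0.20 for cKO over Ctrl.

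With the replicate number as a block in the same model, 1 of the 7 passed: Ntrk2 fell. In that model 5.33% of all genes passed, 3.56% as lower and 1.76% as higher in cKO. The adjusted p of Ntrk3 (0.0608) and Kidins220 (0.0636) lay just above the threshold, and those of Sort1 (0.162), Bdnf (0.165) and Ngfr (0.188) further from it. In the unadjusted block test 6 of the 7 had a p under 0.05, beside 18.7% of all genes.

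**Figure D2:**
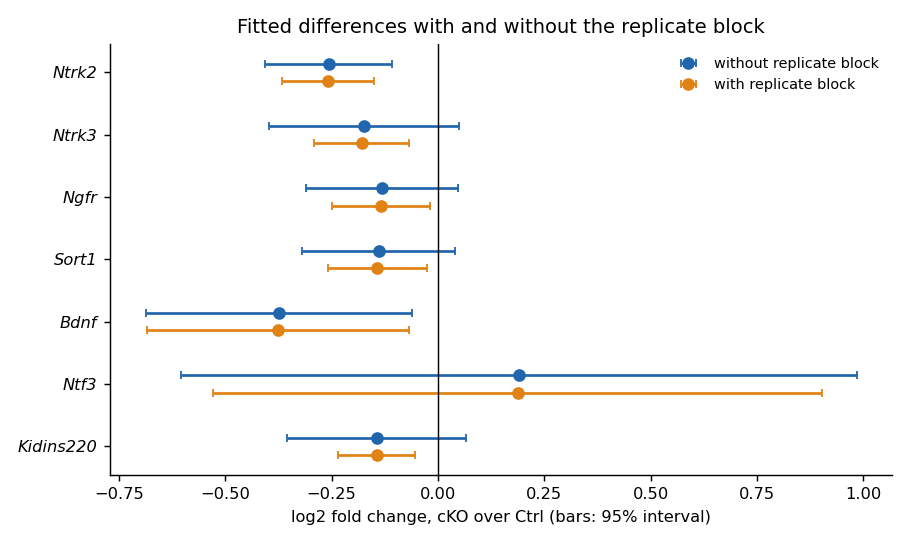
Fitted log2 fold change of each gene, cKO over Ctrl, without (blue) and with (orange) the replicate block; bars are 95% intervals. The point estimates hardly move with the block, and its narrower intervals lie below 0 for 6 genes; the interval of Ntf3 spans 0 in both.

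Ntrk2 (chromosome 13, 58806472 to 59133970, GRCm38) encodes TrkB, the receptor of brain-derived neurotrophic factor. It had 1536, 1679 and 1691 estimated counts in cKO, against 1901, 1961 and 1855 in Ctrl. On the normalised scale that was 88.6, 98.1 and 98.6 CPM in cKO, against 110.5, 116.8 and 113.7 CPM in Ctrl. Each cKO library lay below each Ctrl library in CPM, and cKO replicate 1 was the lowest of all. In TPM the groups touched, since cKO replicate 2 with 23.5 TPM lay slightly above Ctrl replicate 1 with 23.4 TPM.

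For Ntrk2 the fitted log2 fold change was -0.26 (SE 0.07, 95% interval -0.41 to -0.11), or 0.837 times Ctrl, with an edgeR adjusted p of 0.151. With the replicate block it was -0.26 (SE 0.05) and passed, at 0.00778 after adjustment in edgeR. The blocked call was lost without the libraries numbered 2 (edgeR adjusted p 0.104, log2 fold change -0.26) and held without those numbered 1 (0.00417) or 3 (0.00313). The blocked fit without pair 2 called fewer genes in all, 260 against 764 with every pair. Without both libraries numbered 1, Ntrk2 passed even with no block (log2 fold change -0.23, edgeR adjusted p 0.016), in a fit that called 5.09% of all genes. On log2(TPM + 1) values limma gave -0.21 and an adjusted p of 0.640.

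The TrkB count of a gene-level table adds up transcripts of different function. GENCODE M21 lists 5 distinct complete coding sequences of Ntrk2, with 1401 to 2466 coding bases, and they differ in whether they reach the end of the kinase. A short form, a TrkB without kinase, shares its first 1394 coding bases with the longest form and then has 37 of its own. The point where they part is shown for both, with the bases after the shared stretch in capitals.
Ntrk2, short form, last 48 coding bases: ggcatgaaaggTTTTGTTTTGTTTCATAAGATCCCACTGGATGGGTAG
Ntrk2, longest form, the same position: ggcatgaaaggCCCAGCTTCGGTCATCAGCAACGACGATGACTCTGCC
Reads on either side of this point enter the same Ntrk2 count, so a shift between the kinase and short forms is not visible in the values above. The level of kinase-bearing TrkB alone was not measured.

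Ntrk3 (chromosome 7, 78179986 to 78581034, GRCm38) encodes TrkC, the receptor of neurotrophin-3. It had 104, 128.9 and 138 CPM in cKO, against 127.1, 140.8 and 150.6 CPM in Ctrl. The groups overlapped, although each cKO library lay below the Ctrl library of its number, by log2 ratios of -0.29, -0.13 and -0.13. The log2 fold change was -0.17 (SE 0.10, 95% interval -0.40 to 0.05, edgeR adjusted p 0.613), and -0.18 with the block (edgeR adjusted p 0.0608). Without cKO replicate 1 the unblocked value was -0.06 (SE 0.08), and without both libraries numbered 1 it was -0.13 (SE 0.06). GENCODE lists 4 complete coding sequences of Ntrk3, of 1839 to 2595 bases, and the count again sums over them.

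TrkB and TrkC signal through closely related tails. The last 36 coding bases of their longest forms, where both receptors carry the tyrosine that docks phospholipase C gamma, are given with the 8 differing bases in capitals.
Ntrk2: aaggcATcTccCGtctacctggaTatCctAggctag
Ntrk3: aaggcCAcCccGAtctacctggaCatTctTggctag
The other 28 bases are the same in both genes.

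Ngfr (chromosome 11, 95568818 to 95587698, GRCm38) encodes p75, which binds every neurotrophin and is made by neurons and by the glia of the ganglion. It had 467.5, 557.4 and 538.3 CPM in cKO, against 580.4, 568.8 and 562 CPM in Ctrl. The groups did not overlap, but 2 of the cKO libraries lay close to Ctrl and 1, replicate 1, lay far below. Its log2 fold change was -0.13 (SE 0.08, 95% interval -0.31 to 0.05, edgeR adjusted p 0.644). Without cKO replicate 1 it was -0.06 (SE 0.07), and with the block and without the number 1 pair it was -0.05 (SE 0.05, edgeR adjusted p 0.667).

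Sort1 (chromosome 3, 108283974 to 108361519, GRCm38) encodes sortilin, a sorting receptor that joins p75 in binding the uncleaved precursors of neurotrophins. It had 138.2, 164.1 and 166.2 CPM in cKO, against 166.9, 181.6 and 167.5 CPM in Ctrl. The groups were separated by less than 1 CPM, between cKO replicate 3 and Ctrl replicate 1. The log2 fold change of Sort1 was -0.14 (SE 0.08, 95% interval -0.32 to 0.04, edgeR adjusted p 0.618), and -0.06 (SE 0.07) without cKO replicate 1. With the block it passed only when the number 3 pair was left out (log2 fold change -0.21, edgeR adjusted p 0.0315), and so did Ntrk3 (-0.21, edgeR adjusted p 0.0409), in a fit that called 5.82% of all genes.

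**Figure D3:**
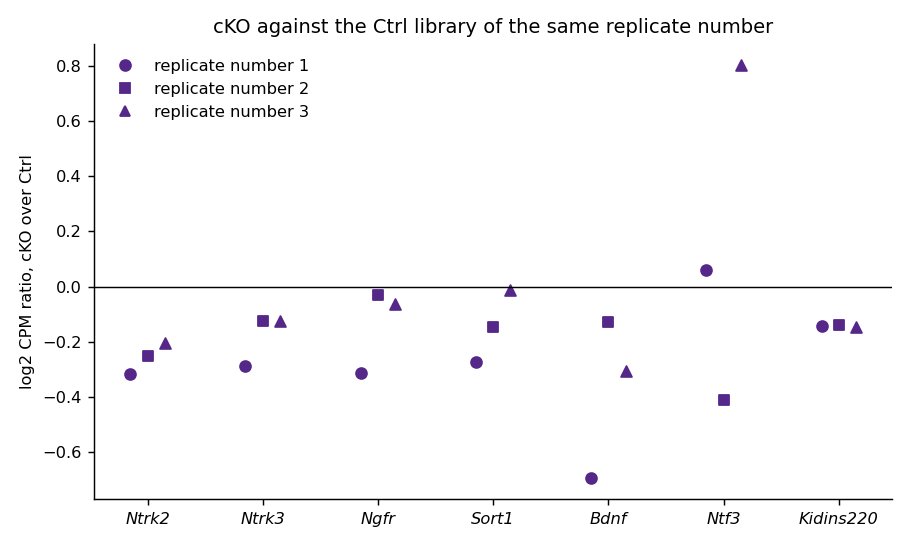
Log2 ratio of CPM in each cKO library to the Ctrl library of the same replicate number, for the 7 genes. Kidins220 differed by nearly the same amount in each pair (-0.14, -0.14 and -0.15), while Ngfr, Sort1 and Bdnf differed most in the number 1 pair and Ntf3 changed direction between pairs.

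Bdnf (chromosome 2, 109674700 to 109727043, GRCm38) encodes the ligand of TrkB and is made by a subset of sensory neurons. It was sparsely read, with 75, 96 and 90 estimated counts in cKO, against 121, 103 and 106 in Ctrl. These were 4.33, 5.61 and 5.25 CPM in cKO, against 7.03, 6.13 and 6.5 CPM in Ctrl, and every cKO library was below every Ctrl library. Among the 7 genes its fitted difference was the furthest from 0, with a log2 fold change of -0.37, or 0.772 times Ctrl. The SE of 0.14 was wide (95% interval -0.69 to -0.06), and the gene did not pass (edgeR adjusted p 0.360, or 0.165 with the block). The pairs gave log2 ratios of -0.70, -0.13 and -0.31, so the number 1 pair was the most different. Without that pair the blocked value was -0.22 (SE 0.17).

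Bdnf is known for its many separate start sites, each with its own first exon, and RefSeq (GRCm38.p6) gives 7 start windows of 250 bases before to 50 after the start. The gene count sums over all of them. One window is shown because the cAMP response element of Bdnf, through which neuronal activity raises its transcription, is the best studied of its control sequences. Both strands of the 12 windows available for 5 of the 7 genes were searched for CGTCA, the core of that element (reverse TGACG), and this was the 1 window that held it, 35 bases before the start; the match is in capitals.
Bdnf, chr2:109692186-109692485, plus strand: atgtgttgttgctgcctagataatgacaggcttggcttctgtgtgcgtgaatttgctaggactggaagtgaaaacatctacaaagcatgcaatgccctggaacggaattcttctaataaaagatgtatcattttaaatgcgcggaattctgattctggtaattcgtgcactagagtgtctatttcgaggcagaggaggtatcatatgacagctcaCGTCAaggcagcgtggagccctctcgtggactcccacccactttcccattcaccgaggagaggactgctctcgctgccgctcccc
Of all 32851 windows of this length in the table, 20.8% held these letters. A match is a description of the letters only.

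Ntf3 (chromosome 6, 126101412 to 126166772, GRCm38) encodes neurotrophin-3, the ligand of TrkC, which reaches sensory neurons largely from muscle and other target tissue. It had 20, 9 and 19 estimated counts in cKO, against 19, 12 and 10 in Ctrl. The groups overlapped fully, with the lowest library in cKO and high libraries in both groups. The log2 fold change was 0.19 (SE 0.36), and its 95% interval of -0.60 to 0.98 includes differences of either sign larger than that of any other of the 7 genes. These libraries do not settle the direction of any change in Ntf3. Skeletal muscle genes, a list of 10, summed to 12 to 16.7 TPM in cKO, against 10.7 to 15.5 TPM in Ctrl, so muscle RNA was scarce in both groups.

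Y-box proteins take their name from binding DNA with the letters CCAAT in reverse, and the same 12 windows were searched for CCAAT on both strands (reverse ATTGG). Of these, 1 held it, a start of Ntf3, where the match lies 156 bases before the start and is in capitals.
Ntf3, chr6:126164911-126165210, minus strand: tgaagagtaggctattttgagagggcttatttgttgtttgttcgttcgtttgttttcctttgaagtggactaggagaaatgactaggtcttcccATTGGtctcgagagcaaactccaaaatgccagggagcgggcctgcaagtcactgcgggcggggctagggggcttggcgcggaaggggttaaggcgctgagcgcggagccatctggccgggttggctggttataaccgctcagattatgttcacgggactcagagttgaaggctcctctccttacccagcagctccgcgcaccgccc
The share of all windows with these letters was 37.4%. Nothing about binding follows from a match or its absence.

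Kidins220 (chromosome 12, 24974903 to 25063152, GRCm38) encodes a membrane scaffold, also called ARMS, that binds Trk receptors and p75 and prolongs their signal. It had 485.2, 560.9 and 586 CPM in cKO, against 536.3, 617.7 and 649.4 CPM in Ctrl. The groups overlapped because the number 1 libraries were the lowest in both, yet the cKO value was below that of its pair each time and by a like amount. The log2 fold change of Kidins220 was -0.14 without the block (SE 0.10, edgeR adjusted p 0.666) and -0.14 with it (SE 0.04, edgeR adjusted p 0.0636). In the blocked model without the number 1 pair it passed (edgeR adjusted p 0.0428), in a fit that called 8.72% of all genes.

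In whole ganglia, fewer cells of a type and less RNA per cell cannot be told apart. Set against neurons, Ntrk2 held 1.45, 1.58 and 1.57 TPM per 1000 TPM of the 12 pan-neuronal genes in cKO, against 1.67, 1.87 and 1.88 in Ctrl. Ngfr and Bdnf were also below Ctrl in every cKO library on that scale, while Ntrk3, Sort1, Kidins220 and Ntf3 overlapped. Ngfr had 18.8, 22.1 and 21.5 TPM per 1000 pan-neuronal TPM in cKO, against 22.2, 23 and 23.4 in Ctrl. Set against 10 genes of Schwann cells and satellite glia, Ngfr overlapped, with 93.9, 125 and 120.1 TPM per 1000 in cKO, against 124.7, 133.1 and 131.5 in Ctrl. These ratios are descriptions and were not tested.

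The library cKO replicate 1 was the lowest of the 6, in CPM and in TPM, for 6 of the 7 genes. The share of all genes that were lowest in cKO replicate 1 was not counted, so this cannot be read as particular to the 7. With that library left out the median log2 fold change of the 7 was -0.06, against -0.14 with it, and 6 were still below 0. The values of Ntrk2 (-0.21) and Bdnf (-0.27) moved least in proportion, and those of Ntrk3, Ngfr, Sort1 and Kidins220 came to between -0.06 and -0.07. That fit keeps Ctrl replicate 1, the pair of the library left out. With both libraries numbered 1 left out, Kidins220 was at -0.14, Ntrk3 at -0.13, Sort1 at -0.08 and Ngfr at -0.045. Ntrk2 was then at -0.23 and Bdnf at -0.22. The erythroid sum was highest in this library, as given above, and its part in these differences was not tested.

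**Figure D4:**
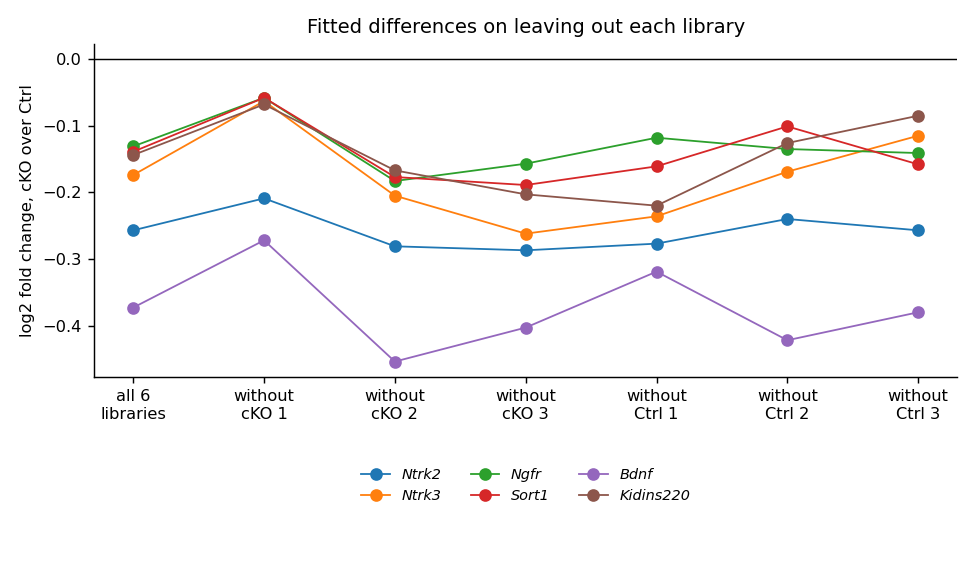
Fitted log2 fold change, cKO over Ctrl, without the block, with all 6 libraries and on leaving out each library; Ntf3, whose estimate is too wide to compare, is not drawn. Lines approach 0 without cKO replicate 1, where Ntrk2 is at -0.21 and Ngfr and Sort1 at -0.06. Ctrl replicate 1, its pair, stays in that fit.

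Most of these genes have long transcripts. The longest coding transcript in GENCODE M21 was 19703 bases for Ntrk3, 8744 for Ntrk2, 7409 for Kidins220, 6836 for Sort1, 4266 for Bdnf, 3446 for Ngfr and 1483 for Ntf3, beside a median of 3247 bases over 13873 tested genes with one. Among the longest 10% of those genes the median log2 fold change was -0.02 with all libraries and 0.03 without cKO replicate 1. With the block it was -0.02, and it was also -0.02 in the blocked model without the number 1 pair. The cold-shock domain of the Ybx1 protein is known to bind RNA with the letters CAUC. Written as CATC, these letters occurred 5.71 times per kb in the Sort1 transcript, 5.63 in Ntrk3, 5.38 in Ntrk2, 4.86 in Kidins220, 4.05 in Ntf3, 3.98 in Bdnf and 3.48 in Ngfr, beside a median of 4.27.

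Beyond the receptors and ligands, 114 other genes of the pathway were listed by their step, of which 107 were tested. One of them fell in the main model, Etv4, and none was higher. With the replicate block 6 were lower and 2 higher, 8 in all, beside the 5.33% called over all genes. That balance depended on the scaling: the blocked model on library totals called 6 as higher and 3 as lower. Without a pair, the blocked model called 7 higher and 8 lower (pair 1), none higher and 2 lower (pair 2) or 1 higher and 8 lower (pair 3). Over all genes those fits called 1252, 260 and 836. The median log2 fold change of the pathway genes was -0.01, and 56 of 107 were below 0, against 48.6% of all genes tested. For the counts given for each list below, 10.7% of all genes had an unadjusted p under 0.05 in edgeR without the block. DESeq2 called 184 of all genes and limma-voom 61.

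Proteins that dock on active Trk receptors were near 0 as a group: the median log2 fold change of 17 adaptor genes was -0.02. None passed edgeR's unblocked test (3 at an unadjusted p under 0.05; none with DESeq2 or limma-voom). With the block, Shc1, an adaptor that couples Trk receptors to Ras, was lower (log2 fold change -0.19, edgeR adjusted p 0.0357). Sos1, the exchange factor that loads Ras with GTP, was higher (0.19, edgeR adjusted p 0.0468). Both calls were lost without pair 2 (0.418 and 0.438) or pair 3 (0.0509 and 0.0754), and that of Shc1 also with library totals (0.0673). Of 20 genes for the Ras, MAP kinase and PI3 kinase steps (median -0.03; 3 at an unadjusted p under 0.05, none with DESeq2 or limma-voom), Creb1, a transcription factor at the end of the pathway, was lower with the block at the edge of the threshold (-0.19, edgeR adjusted p 0.04996). That call was lost without pair 2 (0.425), without pair 3 (0.136) and with library totals (0.087).

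Among 16 partners and effectors of p75 (median -0.01), none passed edgeR's unblocked test. An unadjusted p under 0.05 was reached by 5 of them, beside 10.7% of all genes. DESeq2 called 1 of them, and 184 over all genes, and limma-voom called none of the 16. In CPM the groups did not overlap for 3, lower in cKO, and for 2, higher in cKO, beside 8.77% and 7.83% of all genes. Arhgdia, which encodes an inhibitor of small GTPases that binds p75, had 601.9 ± 50.3 TPM in cKO and 713.6 ± 21.1 TPM in Ctrl (SD, n = 3 each). It was lower with the block (log2 fold change -0.26, edgeR adjusted p 0.00388), and also without any one of the 3 pairs. The 4 relatives of sortilin had a median of 0.02 and no call with or without the block (1 at an unadjusted p under 0.05; none with DESeq2 or limma-voom). Sorcs2, known as a partner of p75, stood at 16 ± 0.845 TPM in cKO and 13.8 ± 0.0551 TPM in Ctrl (SD, n = 3 each; edgeR adjusted p 0.270), and Sorcs1 at 13.6 ± 1.86 TPM in cKO and 12.9 ± 1.26 TPM in Ctrl (edgeR adjusted p 0.943).

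Of the enzymes that can cut proneurotrophins, 8 of 11 were tested, with a median of -0.05 and no call with or without the block (1 at an unadjusted p under 0.05; none with DESeq2 or limma-voom). The most abundant were Pcsk2, a proprotein convertase (47.2 ± 4.23 TPM in cKO and 51.9 ± 2.47 TPM in Ctrl), and Plat, which encodes tissue plasminogen activator (30 ± 1.79 TPM in cKO and 30.7 ± 3.34 TPM in Ctrl; SD, n = 3 each). Of 22 genes for Trk trafficking and turnover (median 0.02; 1 at an unadjusted p under 0.05, none with DESeq2 or limma-voom), Usp8, a deubiquitinase of the endosome, was higher with the block (log2 fold change 0.20, edgeR adjusted p 0.0408), a call lost without pair 2 (0.418).

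Genes that neurotrophins induce held the 1 call of the main model. Etv4, an ETS factor that Trk signals raise in sensory neurons, had 19.3 ± 1.68 TPM in cKO and 30.4 ± 1.35 TPM in Ctrl (SD, n = 3 each), and its fitted log2 ratio was -0.68 (SE 0.08; adjusted p 0.00363 by edgeR). That call held under every scaling, filter and tool tried and on leaving out each library. Its relative Etv1, which proprioceptors need and neurotrophin-3 induces, was lower with the block alone (-0.24, edgeR adjusted p 0.014), as was Jun (-0.20, edgeR adjusted p 0.0448), an immediate-early transcription factor named after its value was seen. Without pair 2 neither was called (0.0582 for Etv1 and 0.312 for Jun), and Jun was not called without pair 1 (0.119) or with library totals (0.0762). The 20 tested genes of this list had a median of -0.07, with 11 below 0.

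**Figure D5:**
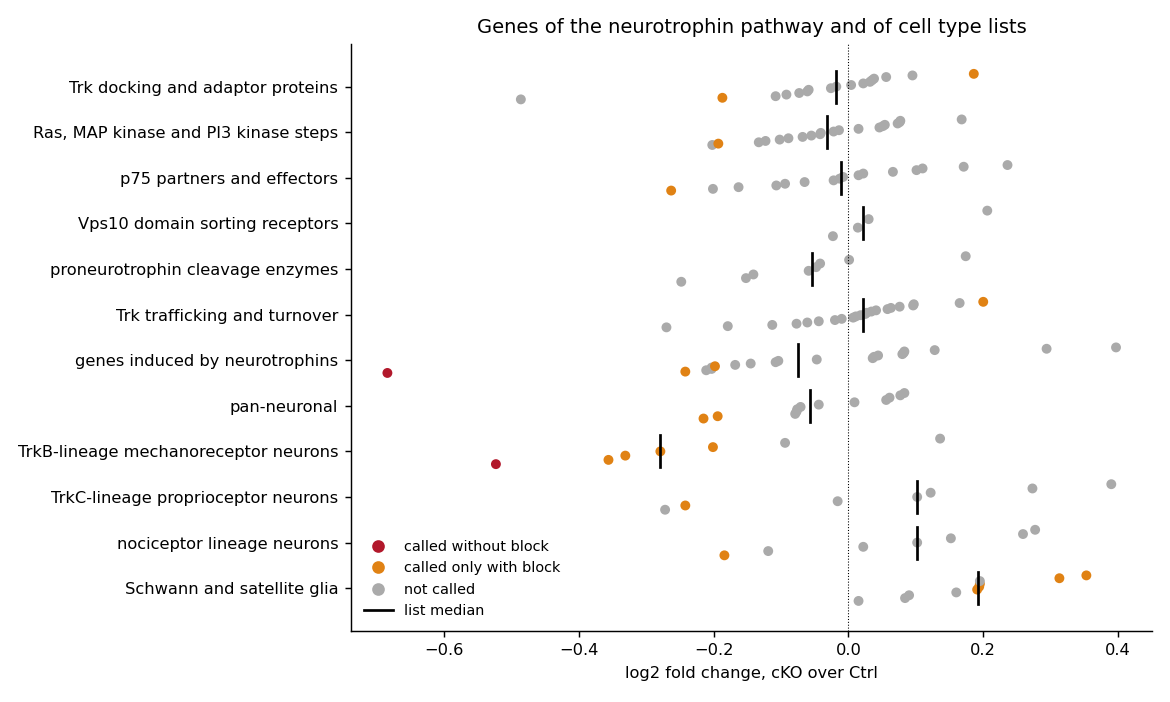
Log2 fold change, cKO over Ctrl, of the tested genes in each pathway list and in 5 lists of cell types of the ganglion, without the 7 genes themselves. Red marks calls without the block, orange those only with it, and black bars the list medians, which lie between -0.07 and 0.02 for the pathway lists, at -0.28 for the TrkB lineage and at 0.19 for glia.

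Genes that mark the cell types bearing these receptors were set beside them. Of 7 genes of the TrkB touch lineage, 6 were below 0 with a median of -0.28, and Mafa, a transcription factor of that lineage, fell (14.6 ± 0.619 TPM in cKO and 20.8 ± 1.28 TPM in Ctrl; SD, n = 3 each; log2 fold change -0.52, edgeR adjusted p 0.0449). The call of Mafa was lost with library totals (0.0595), with limma on TPM and on leaving out any library other than cKO replicate 1 (0.0739 to 0.196). Of the 7, 5 had an unadjusted p under 0.05 in edgeR without the block, beside 10.7% of all genes. DESeq2 called 2 of them and limma-voom 1, and over all genes 184 and 61. With the block, 5 of the 7 were lower and none higher, beside 3.56% and 1.76% of all genes. In blocked models without pairs 1, 2 and 3, 4, 3 and 4 were lower, and over all genes 732, 184 and 551. The summed TPM of the 7 was 185.1, 221.5 and 205.6 in cKO, against 239.8, 252 and 247.6 in Ctrl, so every cKO library was below every Ctrl library, as with Ntrk2 in CPM.

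The TrkC lineage list was mixed. Its 7 genes ran from -0.27 to 0.39, with 3 below 0 and a median of 0.10. In CPM the groups did not overlap for 2 of them, lower in cKO, and for 1, higher in cKO, beside 8.77% and 7.83% of all genes. The 7 summed to 87.5, 118 and 116.7 TPM in cKO, against 109.8, 118.5 and 117.2 TPM in Ctrl. None passed edgeR's unblocked test, and none was called by DESeq2 or limma-voom. An unadjusted p under 0.05 in edgeR was reached by 3 of the 7, beside 10.7% of all genes. With the block Etv1, given above, was the 1 lower gene, beside 3.56% of all genes. The blocked model called 2 lower without pair 3, 1 lower and 1 higher without pair 1, and none without pair 2. Whether the TrkB and TrkC lists differ from each other was not tested. Of 7 nociceptor lineage genes (median 0.10), none passed without the block (1 at an unadjusted p under 0.05; none with DESeq2 or limma-voom), and 1 was lower with it: Scn9a, a sodium channel of pain neurons (138.3 ± 24.1 TPM in cKO and 155.4 ± 27 TPM in Ctrl; SD, n = 3 each; log2 fold change -0.18, blocked edgeR adjusted p 0.0237). The blocked call of Scn9a was lost without pair 2 (0.161) or pair 3 (0.121).

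The 12 pan-neuronal genes had a median of -0.06, and none passed without the block (2 at an unadjusted p under 0.05; none with DESeq2 or limma-voom). With it Isl1, a transcription factor of sensory neurons, and Stmn2, a microtubule regulator, were lower (blocked log2 fold changes -0.215 and -0.196, edgeR adjusted p 0.00833 and 0.00858). These were 2 of the 12, beside 3.56% of all genes called lower in that model. Both calls were lost without pair 2 (0.148 and 0.0901), at log2 fold changes of -0.215 and -0.211. That fit called 260 genes in all, against 764 with every pair. All 10 glial genes were above 0 (median 0.19), and none passed edgeR's test without the block. In that test 5 had an unadjusted p under 0.05, beside 10.7% of all genes, while DESeq2 called 1 and limma-voom none. With the block 5 were higher, beside 1.76% of all genes. Without pair 2 the blocked model called 2 of them higher, and 76 over all genes. The myelin gene Mbp had a blocked log2 fold change of 0.31 (edgeR adjusted p 0.00329). Cdh19, a cadherin of Schwann cell precursors, and Sox10, a transcription factor of the glial lineage, were also higher with the block (0.36 and 0.20, edgeR adjusted p 0.0196 and 0.0271), although Sox10 was not without pair 2 (0.277) or pair 3 (0.0979). The glial sum was 2623.2 to 2649.3 TPM in cKO, against 2459.6 to 2495.5 TPM in Ctrl. The part of these shifts in neuronal and glial genes in the values of Ntrk2, Ngfr and the other 5 genes was not tested.

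Markers of tissue outside the ganglion were low or alike in the groups, with exceptions. Spinal cord and motor neuron genes summed to 2.39 to 3.71 TPM in cKO, against 1.77 to 2.71 TPM in Ctrl, and 4 of the 10 had at most 3 counts in every library; Pax6 was higher in cKO (log2 fold change 2.12, edgeR adjusted p 0.0449), a call lost on leaving out any library other than cKO replicate 1 and resting on 2.52 to 18.1 counts. Macrophage genes summed to 113.7 to 151 TPM in cKO, against 89.9 to 104.2 TPM in Ctrl, and all 9 genes were above 0, with a median log2 fold change of 0.44. Of these 9, 5 had an unadjusted p under 0.05 in edgeR, beside 10.7% of all genes. Mpeg1 was called higher (log2 fold change 0.82, edgeR adjusted p 0.0446), a call also lost without any library but cKO replicate 1 and with limma-voom (0.0576). With the block 2 macrophage genes were higher, beside 1.76% of all genes. They were Mpeg1 and C1qb, the latter named after its value was seen, and both were also called without any one pair. Mesenchymal genes summed to 840 to 903.4 TPM in cKO, against 774.1 to 906.6 TPM in Ctrl; the collagen genes Col3a1 and Col1a2 averaged 236.8 and 239.9 TPM in cKO, against 231.7 and 224.2 TPM in Ctrl. Endothelial genes summed to 228.7 to 251.2 TPM in cKO, against 231.5 to 242.1 TPM in Ctrl, where Cdh5 and Emcn averaged 64.6 and 54.3 TPM in cKO, against 64.9 and 56.1 TPM in Ctrl. Skin genes summed to 3.91 to 5.24 TPM in cKO, against 3.31 to 4.58 TPM in Ctrl, with the keratin gene Krt10 at 4.02 TPM in cKO and 3.68 TPM in Ctrl. In muscle Acta1 averaged 4.05 TPM in cKO and 4.06 TPM in Ctrl, and Tnnt1 3.34 TPM in cKO and 3.46 TPM in Ctrl. The erythroid genes Hba-a1 and Hbb-y averaged 11762.3 ± 7559.6 and 6175.7 ± 3726 TPM in cKO, and 8574 ± 1603.1 and 4434.4 ± 293.9 TPM in Ctrl (SD, n = 3 each). Their log2 fold changes were 0.472 and 0.495 with all libraries. Without cKO replicate 1, which had the highest erythroid sum, they were -0.285 and -0.2. No gene of these lists was at 0 in all libraries.

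Genes with the pattern most like that of the 3 receptors Ntrk2, Ntrk3 and Ngfr were sought by Pearson correlation of log2 CPM over the 6 libraries, after removal of the mean of each pair. That leaves 3 independent differences, and with so few many genes correlate closely by construction: 187 of 11604 genes had r of at least 0.99 with Ntrk2, 131 with Ntrk3 and 63 with Ngfr. The nearest to Ntrk2 were Hpcal1, Polr3g and Gfm2. The nearest to Ntrk3 were Nell2 (54.2 TPM in cKO and 68.9 TPM in Ctrl), B4galt2 and Arhgap1, and those nearest to Ngfr were Actg1, Pcdhga9 and Micall2. Of these 9, Nell2, which encodes a secreted neuronal glycoprotein, passed with the block (log2 fold change -0.37, edgeR adjusted p 0.00424, or 0.0715 without it). In that model 5.33% of all genes passed. The 9 were picked by the same differences within pairs that the blocked test uses, so this call is not independent of the choice.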

How the data were processed

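RNA-seq libraries of dorsal root ganglia (3 cKO, 3 Ctrl) were analysed from the table deposited for the series. Its estimated counts, which the authors deposited without scaling, were used for tests, and its TPM values, also deposited by the authors, for levels. The authors also deposited FPKM values per library, not used in any test. The build is GRCm38 (mm10) and the tools named are RSEM 1.3.1, HISAT2 2.2.1 and Bowtie2 2.4.5, with no role given, per the submitters' processing notes. Per the labels' protocols, RNA was extracted with Trizol. Strandedness is not stated there, so reads of a gene and an antisense partner may be mixed.

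Counts were rounded and filtered with filterByExpr, which left 14338 genes. The main model was the robust quasi-likelihood test of edgeR 4.0.16 (R 4.3.3) with TMM scaling and genotype alone, two-sided, with Benjamini-Hochberg adjustment over all tested genes and a threshold of 0.05; it was tested on simulated data first. Intervals are 95% from the model SE. Alternatives were DESeq2 1.42.0, limma 3.58.1 (voom, and log2 TPM with a pseudocount of 1 or 0.1), other scalings and filters, the replicate number as a block, and fits without 1 library; models without a pair, the block with library totals and the fit without both libraries numbered 1 were added after seeing the data. Once group means were removed, libraries with the same number correlated over genes (0.328, 0.205 and 0.184, all above 0.1). Libraries with different numbers gave -0.264 to 0.118, and cKO replicate 3 with Ctrl replicate 2 (0.118) also lay above 0.1. The numbers were taken to pair the libraries. The series' text calls the samples biological and the controls littermates, without saying whether a library is 1 embryo or a pool.

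The 7 genes and all lists were chosen with earlier results of these data known. Named genes are the 7, Ybx1, and for each list up to 4 called members (else up to 4 called with the block, else the 2 with the highest TPM), plus the 3 most similar genes at 5 CPM or more; exceptions are marked, and 1 glial gene under this rule is not reported here. Lists leave out the 7 genes. Coordinates come from RefSeq GRCm38.p6, promoter windows from its table, and coding sequences from GENCODE M21. Figures were drawn with matplotlib 3.10.9.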

Additional observations from a re-analysis of the deposited data

How the results depend on the processing

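All 7 genes kept their direction under every other scaling, filter and tool and on leaving out each library. Of the models chosen after seeing the data, Ntf3 reversed to -0.12 in the blocked model without the number 3 pair. Ntrk2 was called with the replicate block (-0.26), with the block and library totals (-0.23), without both libraries numbered 1 (-0.23), and in the blocked models without pair 1 or 3 (-0.23 to -0.29). Blocked models without 1 pair also called Ntrk3 (-0.21) and Sort1 (-0.21) without pair 3 and Kidins220 (-0.14) without pair 1. The block changed no other call among the 7. The causes were not tested.

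Over all genes, 69 were called, 16 higher and 53 lower. The count was 44 with library totals (16 higher, 28 lower), 184 with the DESeq2 test, 128 with no filter, 15 with limma on log2(TPM + 1) and 15 with 0.1 as pseudocount. It was 764 with the replicate block, 799 with the block and library totals (396 higher, 403 lower), 731 without both libraries numbered 1 and, in blocked models, 1252, 260 and 836 without pairs 1, 2 and 3. Leaving out 1 cKO library gave 104, 20 and 31 calls for replicates 1, 2 and 3, and leaving out 1 Ctrl library gave 58, 20 and 18. Of the pathway genes 1 was called, against 2 with the DESeq2 test, 8 with the replicate block, 9 with the block and library totals (6 higher, 3 lower, against 2 and 6 with the block alone), 9 without both libraries numbered 1 and 2 to 15 in blocked models without a pair. Of 140 list medians recomputed, 121 moved by less than the spread between libraries and 19 by more. Ntf3 and Bdnf rest on the fewest counts of the 7, 9 to 20 and 75 to 121 per library.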
